A study of Mus musculus with 6 samples.

Results

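Immature neuron genes were followed in coronal brain sections of mice at 3 ages. They are 10 of the 19465 genes in the files and were taken by symbol: Sox11, Sox4, Neurod1, Dcx, Dpysl3, Tubb2b, Marcksl1, Igfbpl1, Cd24a and Ccnd2. Spatial transcriptomics (Visium for formalin-fixed, paraffin-embedded tissue, FFPE) was applied to 6 sections of untreated male C57BL/6J mice, a common inbred strain, with 2 mice at P21 (postnatal day 21), 2 adults (12 to 15 weeks) and 2 aged mice (28 months). P21 mice were bred in house from Jackson parents, adults came from Jackson and aged mice from the NIA. Probes against each transcript were counted as unique molecular identifiers (UMIs) in spots of 55 μm, each of which holds several cells. Aged sections were placed on v2 slides with a CytAssist transfer and read with Space Ranger 3.1.1, while P21 and adult sections were on v1 slides and read with 2.0.0, so age and platform cannot be told apart in aged vs. adult. The source of the mice differed with age, so age and source cannot be told apart in either comparison. In spots, fewer immature neurons and less RNA per neuron cannot be told apart either.

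New neurons arise after birth in the subgranular zone of the dentate gyrus (DG) and along the lateral ventricles. Newborn granule cells pass through a stage in which SoxC and bHLH transcription factors, a growing cytoskeleton and distinct surface proteins are switched on together. These proteins are then turned down as the cell matures. The rate at which new granule cells are made falls steeply between the juvenile and the old mouse. Several of the genes are also used by other cells, as Cd24a is by the ciliated ependymal cells that line the ventricles.

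In total 20336 spots were kept, 2917 to 3679 per section, with medians of 12074.5 to 25535 UMIs per spot. Spots were assigned to zones by clustering without the 10 genes. DG was the cluster led by C1ql2, Dsp and Prox1, and it held 26 and 26 spots at P21, 44 and 44 in adult sections and 43 and 48 in aged sections. Ventricle borders (VB) were the top 2% of a section's spots by an ependymal marker panel, less those in the DG or choroid plexus. The choroid plexus cluster scored 3.52 on its own marker panel and 2.32 on a habenula panel, so it may hold both tissues. The 7 other zones were cortex (CTX), CA pyramidal layer (CA), the remaining hippocampus (HPM), thalamus (TH), hypothalamus (HY), striatum (STR) and fiber tracts (FT). Apart from their VB spots, a meningeal cluster (1028 spots) and unnamed clusters (2057 and 240 spots) were in none of these zones. Spot barcodes, which mark positions on a slide type, were shared by 2612 to 2997 spots between v1 sections, by 3364 between aged sections and by 0 between v1 and v2 sections. UMIs were summed per section and zone. Levels are CPM (UMIs scaled to the total of the sum, with TMM factors), and "called" means an edgeR adjusted p (Benjamini-Hochberg) under 0.05 with a fold change over 1.5. Sections are the replicates, from separate mice per the labels.

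To show what the genes carry just before their start, the 250 bases upstream are printed for Sox11 and Marcksl1, whose differences in P21 age effect between the DG and other zones had opposite signs, a call that Marcksl1 lost when single sections were left out, and whose windows overlap no annotated exon. The sequences are from RefSeq (GRCm38.p6) and read 5′ to 3′ on the gene's strand. Capitals mark a CCAAT box, or its reverse complement ATTGG, which 33.8% of 32851 promoter windows of this length hold. The Sox11 window is chr12:27342719-27342968 (minus strand) and the Marcksl1 window chr4:129513331-129513580 (plus strand).
Sox11: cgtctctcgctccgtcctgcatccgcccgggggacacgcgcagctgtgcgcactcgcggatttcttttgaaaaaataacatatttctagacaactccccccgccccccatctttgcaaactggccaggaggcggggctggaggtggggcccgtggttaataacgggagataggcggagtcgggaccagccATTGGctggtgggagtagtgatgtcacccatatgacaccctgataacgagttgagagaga
Marcksl1: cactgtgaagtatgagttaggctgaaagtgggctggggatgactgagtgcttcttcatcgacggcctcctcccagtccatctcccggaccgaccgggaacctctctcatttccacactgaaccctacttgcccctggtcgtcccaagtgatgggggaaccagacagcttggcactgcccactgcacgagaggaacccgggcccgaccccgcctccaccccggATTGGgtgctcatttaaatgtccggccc
Neither holds the E-box CAGATG, or its reverse complement CATCTG, which 14.4% of windows hold, or the Sox core ACAAAG, or its reverse complement CTTTGT, which 16.5% hold. Of the genes, 5 had an entry (Dcx, Sox11, Sox4, Neurod1 and Marcksl1) and 5 did not (Dpysl3, Tubb2b, Igfbpl1, Cd24a and Ccnd2). By GENCODE vM21 (GRCm38), the Sox11 gene spans chr12:27334264-27342574 and Marcksl1 chr4:129513581-129515985. The windows follow the starts of the promoter entries, while exon overlap was taken with GENCODE. The Marcksl1 window abuts its gene span, but the Sox11 window lies further upstream and does not reach its span. Dcx spans chrX:143855842-143933311, Sox4 chr13:28948919-28953713, Tubb2b chr13:34126748-34130466, Igfbpl1 chr4:45809468-45826923, Cd24a chr10:43578284-43584265, Neurod1 chr2:79452521-79456751 and Ccnd2 chr6:127125162-127152193.

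In the DG, 9 of the 10 genes were higher at P21 than in adults. Only Ccnd2 was not called. Over all 10838 genes tested in the DG, 4% were called higher at P21. The median log2 change of the 10 genes was 1.77, against -0.00 over all genes tested. Aged vs. adult, 4 of the 10 (Dcx, Dpysl3, Igfbpl1 and Sox4) were lower and 0 higher, against 3.16% and 3.8% of all genes, with a median of -0.58 against 0.01. Both comparisons share the adult sections. Dcx, Sox11, Sox4 and Cd24a were already listed by the paper among genes higher in P21 DG. The 10 genes were chosen with earlier results of these data known, so these counts are descriptions and not separate support.

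Among the transcription factors, Sox11 and Sox4, SoxC factors that switch on neuronal genes in newborn neurons, stood highest at P21 and lowest in aged DG. Sox11 stood at 203 and 298 CPM at P21, 78.5 and 68.7 in adult sections and 51.9 and 46.1 in aged sections. The 3 ages did not overlap, and Sox11 was higher at P21 by 1.74 ± 0.18 (log2, SE; edgeR adjusted p = 5.97e-06). Aged vs. adult gave -0.61 ± 0.20 (edgeR adjusted p = 0.0585), which missed the threshold. It was called without the filter on low counts (-0.64, edgeR adjusted p = 0.0118), without the first P21 section (-0.61, edgeR adjusted p = 0.0469) and without the first aged section (-0.67, edgeR adjusted p = 0.00955).

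Sox4 had 56.6 and 74.5 CPM at P21, 16.3 and 20.6 in adult sections and 9.21 and 7.05 in aged sections, again without overlap. Its P21 change was 1.79 ± 0.25 (edgeR adjusted p = 0.000189). Its aged change was -1.25 ± 0.32 (edgeR adjusted p = 0.0199), and without either adult section, without the second aged section or with UMIs thinned to equal totals it was not called (edgeR adjusted p from 0.058 to 0.24), and DESeq2 gave -1.24 with no adjusted p.

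Neurod1, the bHLH factor needed for granule neurons to differentiate and survive, behaved otherwise. It stood at 205 and 299 CPM at P21, 112 and 128 in adult sections and 122 and 125 in aged sections. P21 sections were above the others, which overlapped one another. The P21 change was 1.04 ± 0.16 (edgeR adjusted p = 0.000476) and the aged change 0.04 ± 0.16 (edgeR adjusted p = 0.896).

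**Figure D1:**
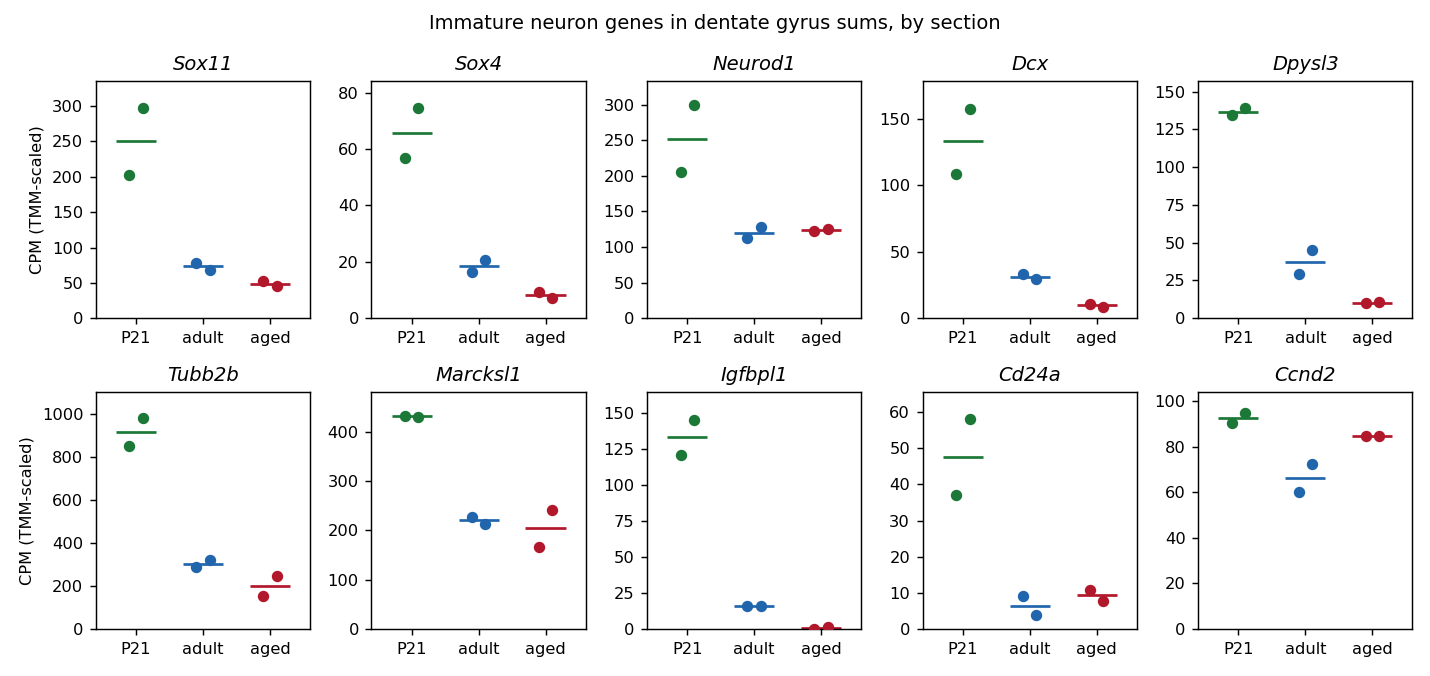
CPM (TMM-scaled, y axis, from 0) of each immature neuron gene in the dentate gyrus sums, with 1 point per section and a line at the mean of the 2 sections of an age. For 9 genes both P21 sections lie far above the adult ones, and Dcx, Dpysl3, Sox4 and Igfbpl1 fall again in the aged sections, while Neurod1 stays at 112 to 128 CPM in adult and aged sections.

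Of the cytoskeletal genes, Dcx and Dpysl3 were called in both comparisons. Dcx, the microtubule-binding protein used as the standard marker of newborn neurons, had 109 and 158 CPM at P21, 33.4 and 29.3 in adult sections and 10.9 and 8.33 in aged DG. The ages did not overlap. The change was 2.06 ± 0.21 at P21 (edgeR adjusted p = 6.09e-06) and -1.77 ± 0.29 in aged DG (edgeR adjusted p = 0.00125), which rests on 39 UMIs in aged against 98 in adult sums.

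Dpysl3 (CRMP4), which binds microtubules and actin in growing axons, had 134 and 139 CPM at P21, 29.4 and 44.9 in adult sections and 10.1 and 10.6 in aged DG. The change was 1.87 ± 0.19 (edgeR adjusted p = 6.48e-06) at P21 and -1.83 ± 0.26 (edgeR adjusted p = 0.000387) in aged sections. Dcx and Dpysl3 kept both calls under each of 13 alternatives run for the DG.

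Tubb2b, a β-tubulin of migrating and growing neurons, had 849 and 980 CPM at P21 against 286 and 320 in adults, a change of 1.59 ± 0.16 (edgeR adjusted p = 5.04e-06). In aged DG it had 152 and 247 CPM, below both adult sections. The aged change of -0.56 ± 0.16 (edgeR adjusted p = 0.0333) was under the fold threshold, and was called at -0.998 without the second aged section (edgeR adjusted p = 6e-08). Tubb2a is a near-identical copy, so counts of the pair may not be fully separate. Marcksl1, an actin-binding protein of the MARCKS family, had 433 and 431 CPM at P21, 228 and 213 in adult sections and 167 and 241 in aged DG. It changed by 0.97 ± 0.14 at P21 (edgeR adjusted p = 0.000278). The aged sections straddled the adult ones (-0.08 ± 0.14, edgeR adjusted p = 0.749).

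Of the secreted and surface proteins, Igfbpl1, an IGF-binding-protein-like secreted protein of immature neurons, had the largest log2 change of the 10 genes in both comparisons. It had 121 and 145 CPM in P21 DG, 15.7 and 16.2 in adult sections and 0 and 1.6 in aged DG. The P21 change was 3.04 ± 0.23 (edgeR adjusted p = 4.26e-07). This rise was not particular to the DG, since 5 of the 7 other zones were also called higher at P21 (0.48 to 4.96 over the 7). Aged vs. adult gave -3.71 ± 0.50 (edgeR adjusted p = 0.00026). This aged value rests on 5 UMIs against 50, a ratio of 0.0731 (95% exact Clopper-Pearson interval 0.0227 to 0.182, counting error only). The first aged section had 0 UMIs, which allows up to 2.51 CPM (3 counts).

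Cd24a, a GPI-anchored surface glycoprotein, had 37.0 and 58.1 CPM in P21 DG, 9.16 and 3.75 in adult sections and 10.9 and 7.69 in aged DG. It was higher at P21 by 2.83 ± 0.38 (edgeR adjusted p = 0.000128), and aged sections overlapped adults (0.44 ± 0.46, edgeR adjusted p = 0.585). Ccnd2, cyclin D2 of dividing neuronal precursors, had 90.6 and 94.7 CPM at P21, 60.2 and 72.4 in adult sections and 84.6 and 84.6 in aged DG. Adults were lowest, but neither change was called (0.48 ± 0.17 and 0.35 ± 0.16, edgeR adjusted p = 0.0974 and 0.171).

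Further genes of this stage were counted from lists, which were chosen with earlier results of these data known. The paper had already listed Dpysl5, Rnd2, Mycn, Tuba1a and Gap43 among genes higher in P21 DG of these sections. The counts are therefore descriptions and not separate support. Of 22 further immature neuron genes, 12 were called higher and 0 lower in DG at P21, against 4% and 2.36% of all genes, with a median of 0.85. In aged DG 1 was higher and 1 lower, against 3.8% and 3.16%. Calb2, the calretinin of early postmitotic granule cells, had 208 and 192 CPM at P21 against 23.5 and 24.3 in adults (3.06 ± 0.27, edgeR adjusted p = 1.28e-06). Dpysl5, a relative of Dpysl3, had 115 and 145 against 31.4 and 46.2 (1.72 ± 0.20, edgeR adjusted p = 3.51e-05), and Draxin, a guidance protein, 13.6 and 24.0 against 4.58 and 2.50 (2.33 ± 0.54, edgeR adjusted p = 0.0112). Nnat, the proteolipid neuronatin, had 350 and 408 CPM at P21, 101 and 83.6 in adult sections and 69.5 and 41.0 in aged DG, and was called in both comparisons.

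Genes of the mature granule cell went the other way at P21. Of 8, 5 were called lower and 0 higher, against 2.36% and 4% of all genes, led by Plk5 at 63.4 and 85.9 CPM against 269 and 283 in adults (-1.92 ± 0.20, edgeR adjusted p = 7.45e-06). Of 14 neural stem cell and progenitor genes, 8 were tested in DG and 2 were higher at P21: Mex3a (2.47 ± 0.45, edgeR adjusted p = 0.002) and Fabp7, a radial glial lipid-binding protein (1.72 ± 0.22, edgeR adjusted p = 8.28e-05). Eomes, a factor of intermediate progenitors, had 0 to 7 UMIs per DG sum and was not tested. Of the cell division list, 2 genes were tested and Mcm6 was called lower at P21 (-0.71 ± 0.19, edgeR adjusted p = 0.0247), while Mki67, the marker of cycling cells, had 0 to 12 UMIs per DG sum and was not tested.

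Markers of other cells also moved with age in the DG sums. At P21 the summed myelin and tract panel (FT) was 1856 to 2454 CPM against 516 to 687 in adults. Of its 7 genes, 5 were called higher, against 4% of all genes tested in the DG. Oligodendrocyte precursor genes summed to 406 to 434 against 231 to 245 CPM, with 5 of 8 tested called higher. Both SoxC factors are also used by oligodendrocyte precursors. Erythrocyte genes summed to 803 to 1189 CPM against 51.2 to 148. Pan-neuronal genes had 0 of 7 called at P21. In aged DG 4 of 8 astrocyte genes (1773 to 2681 CPM summed against 1219.7 to 1287) and 4 of 7 microglia genes (365 to 529 against 215 to 238) were higher. Of all genes, 3.8% were called higher there. The part of these cells in the levels of the immature neuron genes was not tested.

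The next question was whether these age effects differed between the DG and the 7 other zones. At P21 all 10 genes were called higher in DG than in the mean of the 7 other zones, against 9.54% of 14751 genes tested. In adults 6 were higher (Igfbpl1, Neurod1, Marcksl1, Sox11, Sox4 and Tubb2b) and 1, Dpysl3, was lower, against 13% and 17.4%. In aged sections 5 were higher (Neurod1, Marcksl1, Sox11, Ccnd2 and Tubb2b) and 2, Dcx and Dpysl3, were lower, against 13.6% and 17%. In this fit the mean was taken over log2 levels of the zones. Aged Ccnd2 was 0.87 ± 0.11 above that mean. Its log2 ratio over the mean CPM of the zones was only 0.23 and 0.45. Aged DG held 84.6 CPM of Ccnd2, below CA (189) and HPM (95.6), while TH held 11.1. Dcx went from 1.73 ± 0.11 above the other zones at P21 (edgeR adjusted p = 1.22e-16) to 0.12 ± 0.15 in adults (edgeR adjusted p = 0.548) and -1.18 ± 0.20 in aged sections (edgeR adjusted p = 3.53e-06).

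By section, the log2 ratio of DG over the mean CPM of the other zones (CPM + 1) was above 0 in 6 of 6 sections for Sox11, Neurod1, Tubb2b, Marcksl1 and Ccnd2. An exact two-sided sign-flip permutation test gave p = 0.03125 for each, the smallest that 6 sections allow, among 20 such tests and without adjustment. For Dcx the ratios were 1.41 and 2.0 at P21, 0.07 and -0.02 in adult sections and -1.14 and -1.36 in aged sections (exact permutation p = 0.6875). For Dpysl3 they were 0.62 and 0.62, -0.94 and -0.39, and -1.98 and -2.02. These ages did not overlap for either gene.

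**Figure D2:**
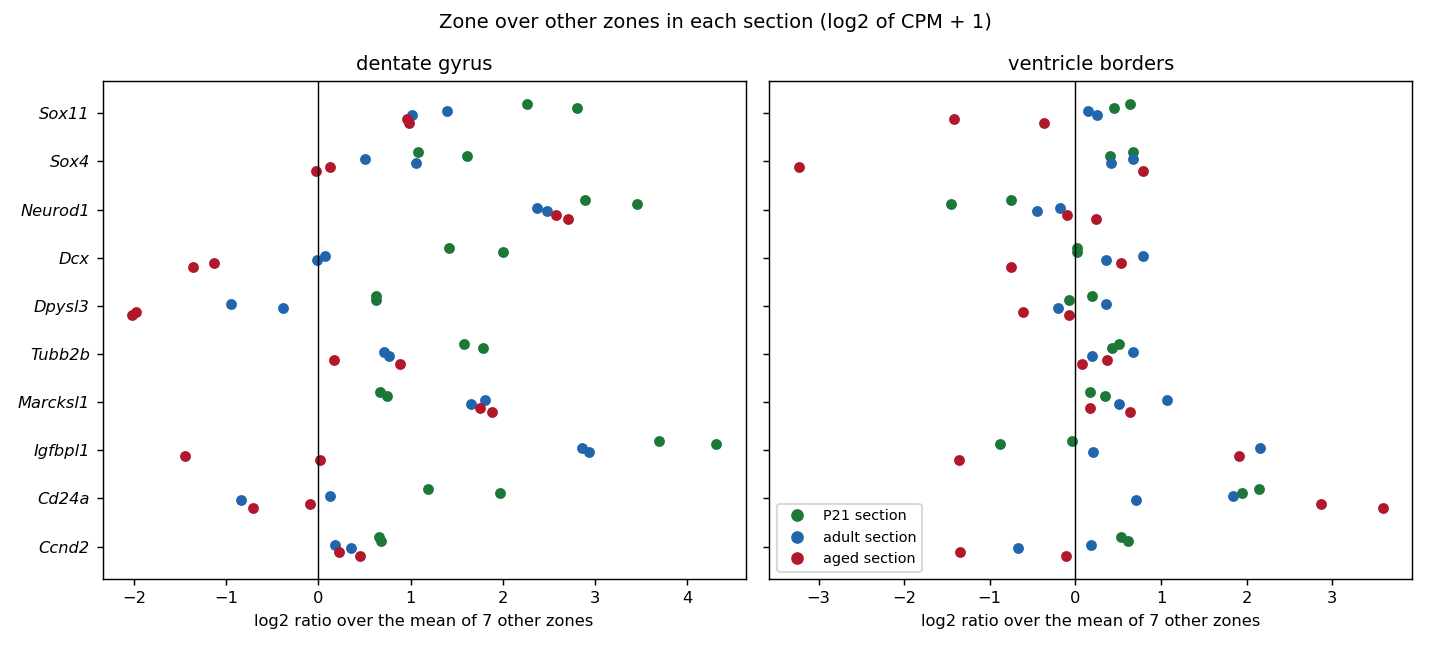
Log2 ratio of CPM + 1 in the dentate gyrus (left) or ventricle borders (right) over the mean of 7 other zones, 1 point per section, coloured by age. Sox11, Neurod1, Tubb2b, Marcksl1 and Ccnd2 lie above 0 in all 6 sections in the dentate gyrus, while Dcx and Dpysl3 pass from above 0 at P21 to below 0 in aged sections; in the ventricle borders Cd24a lies above 0 in all 6.

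The difference of the age effect between DG and other zones was tested directly. P21 vs. adult, 7 of 10 genes differed, against 2.89% of genes. The excess in DG was 1.90 ± 0.40 for Cd24a, 1.61 ± 0.18 for Dcx, 1.26 ± 0.17 for Sox11, 1.23 ± 0.19 for Dpysl3, 0.90 ± 0.13 for Tubb2b and 0.86 ± 0.17 for Neurod1 (edgeR adjusted p from 2.58e-07 to 0.00248). Marcksl1, whose window is printed beside that of Sox11, differed the other way, at -1.19 ± 0.26 (edgeR adjusted p = 0.00354). Igfbpl1 (0.57 ± 0.50), Sox4 (0.49 ± 0.30) and Ccnd2 (0.36 ± 0.19) were not called (edgeR adjusted p = 0.662, 0.476 and 0.348). Aged vs. adult, 3 of 10 differed, against 0.902% of genes: Igfbpl1 by -3.93 ± 0.87, Dpysl3 by -1.38 ± 0.27 and Dcx by -1.30 ± 0.26 (edgeR adjusted p = 0.00665, 0.00164 and 0.00226). P21 vs. adult, 4 genes were called without the second P21 section and 4 without the second adult section. Marcksl1 lost its call when either P21 or either adult section was left out (-1.22 to -1.12, edgeR adjusted p from 0.0604 to 0.182), and Cd24a without the second P21 or the second adult section (1.56 and 1.47, edgeR adjusted p = 0.106 and 0.112). Aged vs. adult, 1 was called without the second adult section. The Dcx aged difference was not called without either adult section or without the second aged section (-1.34 to -1.15, edgeR adjusted p from 0.0513 to 0.14). With DG taken as the top 3% of spots by its marker panel, it was -0.58 (edgeR adjusted p = 0.19), and without the first aged section the Igfbpl1 difference had no finite error, since HPM then held 0 UMIs of it.

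In the 7 other zones, P21 vs. adult calls numbered 35 of 70 gene and zone pairs, all higher. Of all genes, 6.65% were called in CTX, 2.75% in CA, 5.63% in HPM, 7.72% in TH, 3.88% in HY, 3.7% in STR and 9.53% in FT. Marcksl1 and Sox4 were higher in 7 of 7 zones. Marcksl1 rose from 39.8 and 49.2 CPM in adult CTX to 247 and 236 at P21 (2.45 ± 0.12, edgeR adjusted p = 1.66e-08) and reached 443 and 439 in P21 FT. Dcx and Neurod1 were called in HPM alone and Ccnd2 in 0 zones. In CTX, Dcx had 50.3 and 50.9 CPM at P21 and 51.5 and 50.2 in adults (-0.01 ± 0.09, edgeR adjusted p = 0.96). Without the first P21 section 20 pairs were called.

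HPM lies against the DG, and 9 of the 10 genes were called there at P21. The DG held 26 and 26 spots at P21 against 44 and 44 in adults, so P21 HPM may include spots at the DG edge, which was not tested. Over all ages the HPM cluster scored highest on the DG panel (0.42, and 0.29 on the CA panel). C1ql2, a leading gene of the DG, was also among its leading genes. HPM is still counted among the other zones in the comparisons with the DG. Igfbpl1 had 33.3 and 24.5 CPM there at P21 against 1.5 and 2.15 in adults (3.99 ± 0.35, edgeR adjusted p = 1.17e-07), and Dcx 61.7 and 51.8 against 24.4 and 24.8 (1.23 ± 0.16, edgeR adjusted p = 3.23e-05). By distance from the DG at P21, Dcx had 110 and 160 CPM (library totals) in the DG, 112 and 102 in the ring of spots next to it and 42.3 and 50.9 in the second ring. Igfbpl1 had 122 and 147, then 101 and 77.7, then 11.2 and 10.9. In adults Dcx in the first ring was 14.4 and 12.7 CPM, below the 33.2 and 28.9 of the DG. Ccnd2 was higher in the first ring than in DG in all 6 sections, at 164 and 143 CPM in aged sections.

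**Figure D3:**
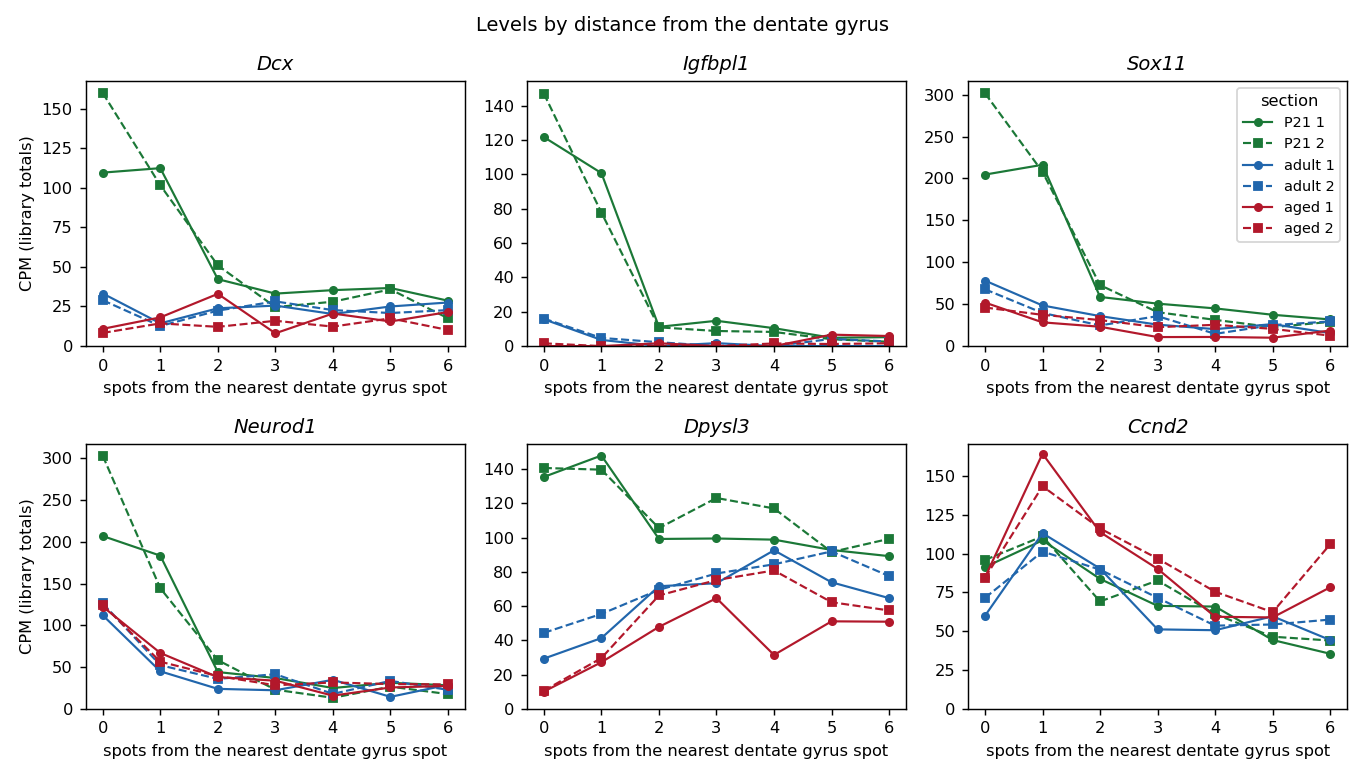
CPM of UMI totals (y axis) by distance in spots from the nearest dentate gyrus spot (x axis, 0 is the dentate gyrus), 1 line per section. At P21 Dcx and Igfbpl1 are high at distances 0 and 1 and drop at 2, where Dcx is 42.3 and 50.9 CPM, and in adult and aged sections Dpysl3 rises from distance 0 to 2.

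Aged vs. adult, 21 of 70 pairs in the 7 other zones were called, 6 higher and 15 lower. Of all genes, 12.7% were called in CTX, 8.77% in CA, 15.1% in HPM, 14.8% in TH, 11.6% in HY, 14.1% in STR and 30.3% in FT. Dcx was lower in TH and FT, where it fell from 33.9 and 30.0 to 13.4 and 15.0 CPM (-1.16 ± 0.15, edgeR adjusted p = 2.49e-06), and in HY it had 40.4 and 43.0 CPM against 37.2 and 35.2 in adults. Neurod1 was lower in FT (-1.67 ± 0.23, edgeR adjusted p = 6.74e-06) and in STR, where it fell from 13.3 and 12.4 to 2.01 and 2.18 CPM (-2.59 ± 0.35, edgeR adjusted p = 3.09e-05). In the same FT sums 5 of 7 pan-neuronal and 6 of 7 cortical panel genes were lower, and in STR 5 of 7 cortical panel genes. Their part in these 2 genes was not tested.

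Ccnd2 was higher in aged CTX, at 77.3 and 64.5 against 41.6 and 46.9 CPM (0.68 ± 0.11, edgeR adjusted p = 0.000239), and in HPM, but lower in TH. Cd24a was higher in CTX, STR and FT. Igfbpl1, lower in aged DG, was higher in aged FT, at 3.95 and 4.50 against 1.94 and 1.74 CPM (1.19 ± 0.36, edgeR adjusted p = 0.00914). In whole sections 6 genes were higher at P21 (Marcksl1, Igfbpl1, Sox4, Cd24a, Dpysl3 and Tubb2b), against 5.69% of 18104 genes, and in aged sections Cd24a was higher and Sox4, Dpysl3 and Tubb2b lower, against 23.8% and 4.68%. Whole-section Dcx was called in neither comparison, with 42.6 and 41.3 CPM at P21 and 38.8 and 34.6 in adult sections and 29.7 and 29.5 in aged sections. Without TMM factors, or without the second adult section, 1 aged call was made in place of 4.

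**Figure D4:**
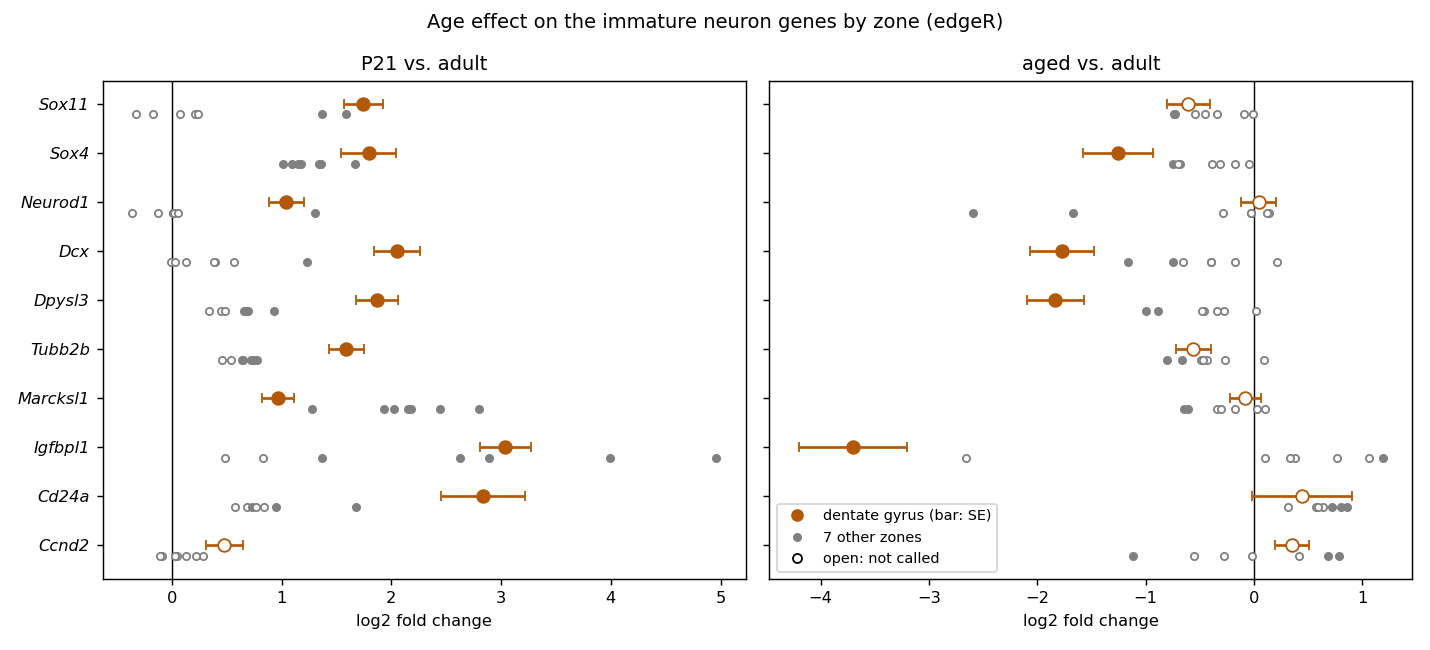
Log2 fold change (x axis) of each gene P21 vs. adult (left) and aged vs. adult (right) in the dentate gyrus (orange, bars are SE) and 7 other zones (grey), with filled points called and open points not. Dcx is at 2.06 in the dentate gyrus at P21 and between -0.01 and 1.23 elsewhere, whereas Marcksl1 is lower in the dentate gyrus (0.97) than in each other zone.

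Levels were ranked among the DG, the VB and the 7 other zones, with the choroid plexus, meningeal and unnamed clusters left out. DG had the highest mean CPM of 7 of 10 genes at P21, 6 in adult sections and 3 in aged sections. In the choroid plexus cluster, adult Sox4 was higher than in DG, at 34.2 and 26.6 CPM. For Dcx the DG was first of 9 zones at P21 (133 ± 34.7 CPM, SD, n = 2) and did not overlap HPM, the next. In adults CTX, VB and STR led and each overlapped its neighbour, and in aged sections HY led (41.7) and DG was last (9.61), overlapping TH and CA. Among these 9 zones Neurod1 was highest in DG at each age, without overlap. The choroid plexus cluster, which also scored on the habenula panel, held 56.5 and 145 CPM of Neurod1 in aged sections, which overlapped the DG. Which of these tissues held it was not tested. Ccnd2 was highest in CA at each age, at 141 to 189 CPM.

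Shares of spots with a UMI were taken after thinning, which sets all spots to one depth. After thinning each spot to 5000 UMIs, a Dcx UMI was found in 46.2% and 53.8% of DG spots at P21, 15.9% and 18.2% in adult sections and 4.65% and 2.08% in aged sections. The unthinned shares were 92.3% and 88.5%, 59.1% and 52.3%, and 30.2% and 41.7%. In TH, which is not a site of new neurons, the thinned share was 4.61% to 10.98% over all sections, and in aged sections it was 5.27% and 4.61%. The aged DG shares each lay below that of TH in the same section, so they show no Dcx above the TH level. The difference between these shares was not tested. TH is not a fixed floor, since Dcx was itself called lower in aged TH (-0.75 ± 0.15, edgeR adjusted p = 0.00334). No DG spot was left out by thinning, and medians in DG were 52835.5 and 31959 UMIs at P21 and in TH 15675 to 29234.5 over all sections. Igfbpl1 went from 30.8% and 34.6% of spots at P21 to 4.55% and 9.09% in adult sections and 0 of 43 and 0 of 48 in aged DG, which allows up to 6.98% and 6.25%, against at most 1.21% in TH. DG held 25.04% and 39.9% of all Igfbpl1 UMIs of a section at P21, 27.3% and 32.9% in adult sections and 0% (of 101 UMIs, which allows up to 2.97%) and 3.76% in aged sections. The DG made up 1.46% to 3.17% of all UMIs.

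For Igfbpl1 the deposited Moran's I, a score of how far neighbouring spots resemble each other, was higher at P21. It was 0.227 and 0.187 at P21, 0.0453 and 0.0357 in adult sections and 0.0469 and 0.04 in aged sections, and 4.92% and 4.14% of genes had a higher score at P21 against 34.4% and 43.2% in aged sections. Neurod1 had 0.262 and 0.182, 0.113 and 0.125, and 0.316 and 0.373. The share of genes above Neurod1 was 3.84% and 4.30% at P21, 10.3% and 8.64% in adult sections and 5.94% and 5.29% in aged sections. The median score of all genes was 0.0166 and 0.0113 at P21 and 0.0226 and 0.0295 in aged sections. For Sox4 Moran's I was 0.0487 and 0.0423 at P21, 0.0177 and 0.0134 in adult brains and 0.00828 and 0.0175 in aged sections. The aged scores come from the v2 slides.

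The ventricle borders held 38 and 43 spots at P21, 26 and 48 in adult sections and 14 and 22 in aged sections, and its place differed with age: 9 and 16 of these lay near the lateral ventricle side (striatum, tracts, cortex or hippocampus around them) at P21, 21 and 35 in adult sections and 7 and 6 in aged sections. Of the top 2%, 34 of 72 and 23 of 66 spots at P21 were removed as choroid plexus, and 32 of 58 and 17 of 65 in adults. In aged sections 60 of 74 and 49 of 71 were removed. The first aged VB sum held 113718 UMIs. The ependymal panel itself summed to 1001 to 1149 CPM at P21, 324 to 356 in adult sections and 1059 to 1821 in aged VB. VB spots were chosen by this panel, so these sums depend on the cut in each section and are not a separate age result. Erythrocyte genes summed to 1579 to 1837 CPM at P21, 115 to 167 in adult sections and 129 to 1935 in aged VB, and the choroid plexus panel to 5878 to 12451 CPM in adults against 307 to 4197 at the other ages. The part of these cells in the levels of the immature neuron genes was not tested.

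Cd24a was the 1 gene called above the other zones in VB at each age. It had 72.5 and 57.1 CPM at P21, 32.4 and 12.8 in adult sections and 92.1 and 171 in aged VB, with differences from the other zones of 2.05 ± 0.20, 1.34 ± 0.42 and 3.30 ± 0.34 (edgeR adjusted p = 4.62e-11, 0.0327 and 3.47e-10). Ependymal cells use Cd24a and VB spots were chosen by ependymal markers, so this excess is not separate from that choice. At P21 Ccnd2 was also called higher and Neurod1 lower in VB (0.65 ± 0.15 and -0.87 ± 0.32). Of all genes 17.4%, 6.35% and 15.7% were called in either direction at P21, in adults and in aged sections. The Cd24a ratio over the other zones was above 0 in 6 of 6 sections, as were those of Tubb2b and Marcksl1 (exact permutation p = 0.03125). The adult call was lost without the first adult section (0.68, edgeR adjusted p = 0.73), without either P21 section (1.31 and 1.32) and with VB as the top 1% or 4% of spots (0.83 and 0.51).

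P21 vs. adult, 5 of the 8 genes tested in VB were higher, against 5.4% of 10023 genes: Cd24a, Marcksl1, Sox4, Ccnd2 and Tubb2b. Igfbpl1 and Neurod1 were too low to be tested. Marcksl1 had 306 and 325 against 137 and 96.2 CPM (1.46 ± 0.20, edgeR adjusted p = 3.08e-05). Ccnd2 had 83.1 and 90.2 against 60.2 and 35.3 (0.91 ± 0.27, edgeR adjusted p = 0.029). Dcx was not called, with 40.7 and 39.1 CPM at P21 and 55.5 and 38.5 in adults (-0.19 ± 0.30, edgeR adjusted p = 0.775) over all VB spots, whose place differed with age. Without 1 of the 6 sections in turn, 1 to 7 genes were called, and on thinned UMIs 0.

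Aged vs. adult, Cd24a alone was called, higher by 2.76 ± 0.41 (edgeR adjusted p = 0.000171), against 5.35% of genes, and its age effect differed from that of the other zones by 1.96 ± 0.44 (edgeR adjusted p = 0.00493), against 3.48% of genes. P21 vs. adult, 0 of 10 genes differed in this way, against 7.25%. In the spots near the lateral ventricle the difference was 0.47 (edgeR adjusted p = 0.87), and without the second adult or the second aged section it was 1.42 (edgeR adjusted p = 0.18 and 0.40). VB spots were chosen by ependymal markers, whose sum was also lowest in adult VB, and ependymal cells use Cd24a. The age changes of Cd24a in VB therefore cannot be told apart from that choice of spots. Aged Dcx rested on 4 and 3 UMIs and was not called (-1.12 ± 0.55, edgeR adjusted p = 0.221). It was called lower with VB as the top 4% of spots (-0.94, edgeR adjusted p = 0.0197) and with choroid plexus spots kept, a choice made after seeing the data (-1.57, edgeR adjusted p = 0.000311). On the lateral side alone, P21 VB held 69.5 and 71.1 CPM (library totals) of Dcx and 139 and 154 of Ccnd2. The side of the thalamus and hypothalamus held 33.1 and 29.5 of Dcx and 68.4 and 71.7 of Ccnd2. Adult VB held 49.4 and 40.4 CPM (library totals) of Dcx on the lateral side, below both P21 sections. Over all VB spots, in TMM-scaled CPM, the ages overlapped. These P21 and adult lateral values rest on 12 to 21 Dcx UMIs per section, and their difference was not called (0.68 ± 0.37, edgeR adjusted p = 0.591).

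**Figure D5:**
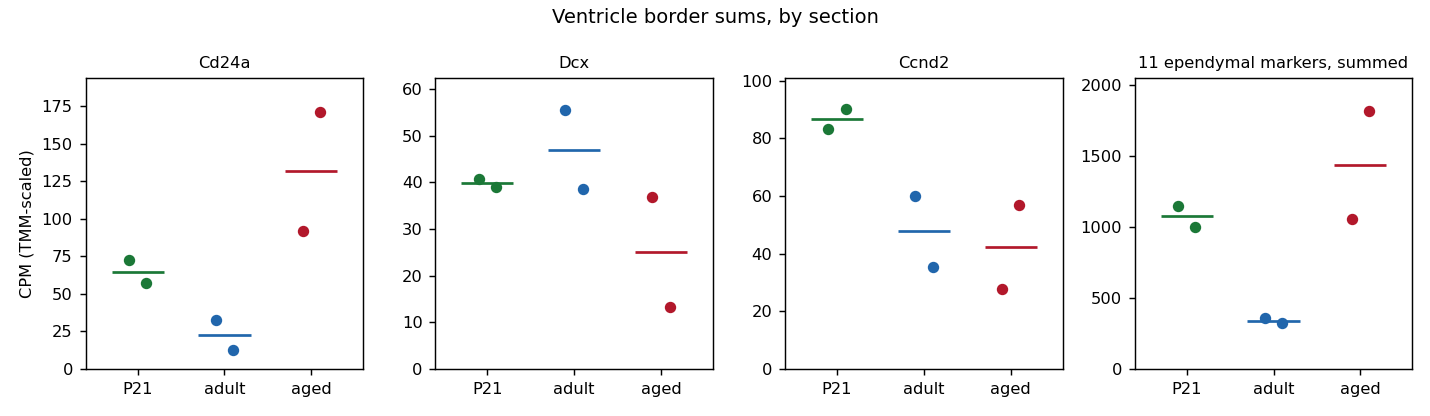
CPM (TMM-scaled, y axis, from 0) of Cd24a, Dcx and Ccnd2 and the summed level of 11 ependymal markers in ventricle border sums, 1 point per section with a line at the mean. The spots were chosen by these ependymal markers. Cd24a and the ependymal markers are lowest in the adult sections and highest in the second aged section (171 CPM of Cd24a), while the Dcx sections of P21 and adult lie between 38.5 and 55.5 CPM.

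Across 54 zone and section sums, the genes with the pattern most like Dcx were Sstr1, Zfp57, Oacyl, Kif21b and Gnb4, with Pearson r of log2(CPM + 1) from 0.73 to 0.80 among 14751 genes. Among the other 9 genes, r with Dcx was 0.64 for Igfbpl1, 0.61 for Sox11 and 0.60 for Tubb2b, and 0.13 for Neurod1 and -0.00 for Ccnd2. Zones of a section share its library, so these are descriptions.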

How the data were processed

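Visium FFPE sections of 6 brains (2 per age) were used. The deposited files hold counts, as UMIs per gene and spot that the authors made with Space Ranger (version 2.0.0 on P21 and adult tissue and 3.1.1 on aged tissue, per the file headers; the submitters' processing notes name 2.1.0, Seurat 5.1.0 and mm10), and Moran's I, a score per gene and section deposited by the authors. Spots with under 500 UMIs or 250 genes were removed. Residual overdispersion picked 3000 genes outside the described lists, 10 principal components and 20 neighbours fed Leiden clustering (leidenalg 0.10.2, resolution 0.3, 14 clusters), and clusters were named from marker panels, with a panel score of at least 0.2 and 3 raised genes. HPM is an unnamed cluster adjoining DG and CA. VB was the top 2% of a section's spots by 11 ependymal markers, from which DG and choroid plexus spots were then removed.

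UMIs were summed per section and zone and fitted with edgeR 4.0.16 (R 4.3.3; filterByExpr, TMM, glmQLFit, glmQLFTest), with age within a zone, or zone by age with section as a block for zone differences. For zone differences the other zones entered as the mean of their log2 levels. P-values were adjusted by Benjamini-Hochberg over all genes tested, and a call needed an adjusted p under 0.05 and a fold over 1.5. The SE of a log2 change was derived from the edgeR test, as the size of the change over the square root of its F statistic. Ratios per section used a pseudocount of 1 CPM and an exact two-sided sign-flip permutation test. DG sums held 782292 to 3128457 UMIs and VB sums 113718 to 1179259. Intervals and limits for a count of 0 (3 counts) cover counting error only, and 95% intervals are Clopper-Pearson. The fits were tested on simulated data with a fixed dispersion. Of 2-fold changes, 25.3% were recovered in DG and 25% in VB (P21 vs. adult), and 62.9% for DG minus other zones at P21. Of 4-fold changes, 99%, 99% and 90.6% were recovered. Alternatives were other normalization, filters and zone borders, DESeq2 1.42.0, a replicate block, thinned UMIs and leaving out each section. The 10 genes are all named, and of other lists up to 4 called genes with the largest change, plus defining markers near 0. The genes and lists were chosen with earlier results of these data known. In aged vs. adult the 2 slide types and software versions coincide with age. The source of the mice coincides with age in both comparisons.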

Additional observations from a re-analysis of the deposited data

Results flagged for a closer look

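Age effects that differed between the DG and the mean of the 7 other zones by the edgeR test of the difference (log2 ± SE, Benjamini-Hochberg adjusted p) were these. For P21 vs. adult the DG effect exceeded that of the other zones for Cd24a by 1.90 ± 0.40 (adjusted p = 0.00248), Dcx by 1.61 ± 0.18 (2.58e-07), Sox11 by 1.26 ± 0.17 (4.46e-06), Dpysl3 by 1.23 ± 0.19 (2.88e-05), Tubb2b by 0.90 ± 0.13 (1.36e-05) and Neurod1 by 0.86 ± 0.17 (0.00156). Marcksl1 stood at -1.19 ± 0.26 (0.00354), so its rise at P21 was smaller in DG. The Marcksl1 call was lost when either P21 or either adult section was left out. Those of Cd24a and Neurod1 were lost without some single sections. For aged vs. adult, Igfbpl1 stood at -3.93 ± 0.87 (0.00665), Dpysl3 at -1.38 ± 0.27 (0.00164) and Dcx at -1.30 ± 0.26 (0.00226). In this fit these aged vs. adult changes were more negative in DG than in the other zones. The Dcx call was lost without either adult section and without the second aged section. It was also lost with DG taken as the top spots by its marker panel. Dpysl3 lost its call without the second adult section. Without the first aged section the Igfbpl1 difference had no finite error. In the VB, Cd24a differed by 1.96 ± 0.44 (0.00493), with a larger aged vs. adult rise in VB than in the other zones. That call was lost without the second adult or the second aged section, and in the spots near the lateral ventricle alone. The larger rise cannot be told apart from the choice of VB spots by ependymal markers. Each group held 2 sections, too few to look for single sections that stand apart by Dixon's test.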

How the results depend on the processing

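The 9 P21 calls in DG held under each alternative run, as did the aged calls of Dcx, Dpysl3 and Igfbpl1 in DG. The cause of the changes below was not tested. Shares over all genes were not taken under the alternatives, so the counts below are not set against them. Aged vs. adult in whole sections, 1 gene was called without TMM factors and 1 with the study's detection filters, in place of 4. The VB counts moved most. P21 vs. adult in VB, 5 calls became 1 with DESeq2, 3 with a replicate block, 0 on thinned UMIs and 3 with VB as the top 1% (where adult is 1 section). Aged vs. adult in VB, 1 call became 4 with the top 4%. For VB minus other zones, 3 calls at P21 became 5 without TMM factors and 1 with the top 4%, 1 in adults became 2 without FT among the other zones, 0 with the top 1% and 0 with the top 4%, and 1 in aged sections became 2 with the top 4%. The difference of the P21 effect between VB and other zones had 0 calls, and 1 without TMM factors and 1 without the filter.

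Further VB borders were chosen after seeing the data. With choroid plexus spots, calls were 3 (P21 vs. adult), 5 (aged vs. adult), 5 and 9 (VB minus other zones in adult and aged) and 6 (difference of the aged effect), and 3 signs turned: Neurod1 at P21 (0.75), Ccnd2 in adults (0.70) and Tubb2b in aged sections (-0.77). With lateral spots alone, calls were 0 (aged vs. adult), 6 (VB minus other zones at P21) and 0 (difference of the aged effect), and Dcx at P21 turned to 0.84. With thalamic and hypothalamic spots alone, calls were 2 (P21 vs. adult), 1 and 0 (VB minus other zones at P21 and in adults).

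Leaving out each section in turn gave these ranges of calls. P21 vs. adult, 6 to 6 in sections, 9 to 9 in DG, 1 to 7 in VB and 20 to 36 in the 7 other zones (20 without the first P21 section). Aged vs. adult, 1 to 4, 3 to 5, 1 to 2 and 15 to 24. For DG minus other zones, 8 to 10 at P21, 6 to 7 in adults and 6 to 8 in aged sections, and for VB 1 to 3, 0 to 2 and 1 to 1. For the difference of the age effect, 4 to 7 and 1 to 4 in DG, and 0 to 2 and 0 to 1 in VB.

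Same-numbered sections did not deviate together (r = 0.10, -0.11 and -0.32 between ages), and the numbers were not used as pairs in the main fits. With 2 sections per age, whether same-numbered sections shared a slide or batch cannot be told from this. With the replicate block, DG had 9 calls at P21 and 5 in aged sections. The 2 sections per age and the UMIs of VB sums limit what could be detected.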
